A study of Sus scrofa with 4 samples.

Results

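The complement genes described here are C3, CFB, C1R, C1S, C5, C5AR1, SERPING1, CD55 and CD59, which were followed in porcine intramuscular preadipocytes (PIP) and in the porcine mature adipocytes (pMA) derived from them. A probe was included when the array design gave it the name of 1 of these genes, and the rule itself used no measured value. The 9 genes were, however, chosen with earlier results of these data known, which limits what their counts beside all gene names can show. The 9 genes stood among 34853 gene names on the array, and 20 of its 43603 probes carried their names. There was 1 array for each of 4 conditions: undifferentiated PIP cells, pMA without stimulation, pMA given serotonin and pMA given TNF-α. PIP is a cell line from pig skeletal muscle, used between passages 26 and 35, so all samples came from the same line. For pMA, cells that had been confluent for 4 days were kept for 4 days in medium with 50 ng/ml insulin, 0.25 μM dexamethasone, 2 mM octanoate and 200 μM oleate. Stimulation lasted 12 h, with TNF-α at 2.5 µg/ml or serotonin at 100 μM, a dose that the sample labels write as 100 μM/ml. RNA was pooled within a condition before labelling, according to the methods. Every condition was therefore 1 sample, no difference had a replicate check and no p-value could be given.

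Complement is a cascade of blood proteins that marks surfaces for removal, draws in leukocytes and can end in a pore in a membrane. The classical pathway starts with the proteases C1r and C1s, the alternative pathway runs through factor B, and the pathways meet at the cleavage of C3, after which C5 is cleaved. C1 inhibitor in the fluid phase and CD55 and CD59 on the cell surface keep the cascade in check. Adipose tissue is known to make several complement proteins itself, among them C3 and factor B.

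The probes were 60-base oligonucleotides. The sequences of the C3 and C1S probes are shown because the agreement between probes of a gene was the only internal check on a value. The CFB probe is shown by its first 30 bases, since no other probe stood for that gene. Sequences run 5′ to 3′, and capitals mark the run of 39 bases that C3 probes 3 and 4 had in common. These probes overlapped and did not measure C3 independently, whereas the longest run shared by any other pair of C3 probes was 7 bases.
C3 probe 1: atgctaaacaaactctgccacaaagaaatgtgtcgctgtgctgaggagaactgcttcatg
C3 probe 2: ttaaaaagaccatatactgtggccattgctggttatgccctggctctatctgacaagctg
C3 probe 3: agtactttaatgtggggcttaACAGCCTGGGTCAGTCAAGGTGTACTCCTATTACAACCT
C3 probe 4: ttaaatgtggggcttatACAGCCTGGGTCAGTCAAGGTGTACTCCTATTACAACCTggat
C3 probe 5: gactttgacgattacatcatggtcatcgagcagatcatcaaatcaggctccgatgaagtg
CFB probe 1, first 30 bases: tttctctaaggggtttcctgctggaaaggg
C1S probe 1: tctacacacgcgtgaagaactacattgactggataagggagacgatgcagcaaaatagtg
C1S probe 2: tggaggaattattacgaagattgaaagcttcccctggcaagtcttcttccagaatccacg
In all, C3 had 5 probes, SERPING1 had 3, C1S, C5, C5AR1, CD55 and CD59 had 2 each, and C1R and CFB had 1 each. Probes of a gene were numbered from the brightest to the dimmest by mean level over the 4 arrays, and probe 1 represented the gene. The GC content of the 20 probes lay between 35.00% and 55.00%. In the pig assembly Sscrofa11.1 C1R and C1S lie next to each other, with 0 annotated genes between them.

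Levels are log2 intensities relative to the 75th percentile of the array, so that 0 is that percentile. Different probes bind their targets with different strength, and levels were compared only between conditions for the same probe. A probe was called well above background by the flag of the scanning software. In PIP cells 11 of the 20 probes were well above background, in unstimulated pMA 13, after serotonin 15 and after TNF-α 19, and no probe was saturated. Over all probes the share was 56.5% in PIP cells, 56.5% in pMA, 60.9% after serotonin and 66.0% after TNF-α. A ratio counted as measured when the probe was well above background on both arrays. When it was so on only 1 array, the ratio is a lower bound against the faintest signal well above background on the other, or against the probe's own value there if that was higher. Where the passing signal lay below that bound, or the probe was dim on both arrays, there was no ratio. The error given with a level or a ratio is that of the scanning software for the spots, which leaves out variation between cultures. Probes repeated on an array had a pooled standard deviation of 0.11 to 0.18 in log2 intensity.

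Markers were checked against the sample names. Of 8 adipocyte markers on the array, 6 were well above background on each array, PIP cells included, and 5 of them, CIDEC, LPL, PPARG, CD36 and LEP, on all 4. Their summed intensity relative to the 75th percentile was 1.92 in PIP cells, 5.47 in pMA, 18.0 after serotonin and 11.5 after TNF-α. Most of each sum came from LPL and CD36, with log2 levels of 1.00 and 1.18 in pMA and 3.41 and 2.65 after serotonin. PPARG, at -3.21 and -3.30, and LEP, at -2.61 and -2.45, differed little between the same arrays. FABP4, a fatty acid carrier of adipocytes, was at -4.76 in PIP cells, not well above background, and at -1.67, -4.44 and -0.23 in the other 3 conditions. ADIPOQ, which encodes adiponectin, was well above background in PIP cells alone, and PLIN1, a lipid droplet protein, on no array. Macrophages also make complement, and of 6 macrophage markers 2 were well above background in PIP cells and in pMA, and 3 after each stimulation. Their summed intensity was 1.65 in PIP cells, 2.19 in pMA, 2.05 after serotonin and 3.16 after TNF-α, with CD163, C1QA and C1QC not well above background on any array. Most of that sum was CD14, with log2 levels of 0.44, 0.90, 0.88 and 1.56 in the same order. AIF1 went the other way, from -1.97 in pMA to -2.89 after TNF-α. Of 4 markers of preadipocytes and fibroblasts 3 or 4 were well above background on each array, of 5 endothelial markers 2 or 3 and of 5 muscle markers 2. CDH5 and TEK of the endothelial markers and MYOD1, MYF5 and MYF6 of the muscle markers were not well above background on any array. The part of other cell types in the differences below was not tested. In RNA from whole cultures a larger number of expressing cells and more RNA in each cell cannot be told apart.

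**Figure D1:**
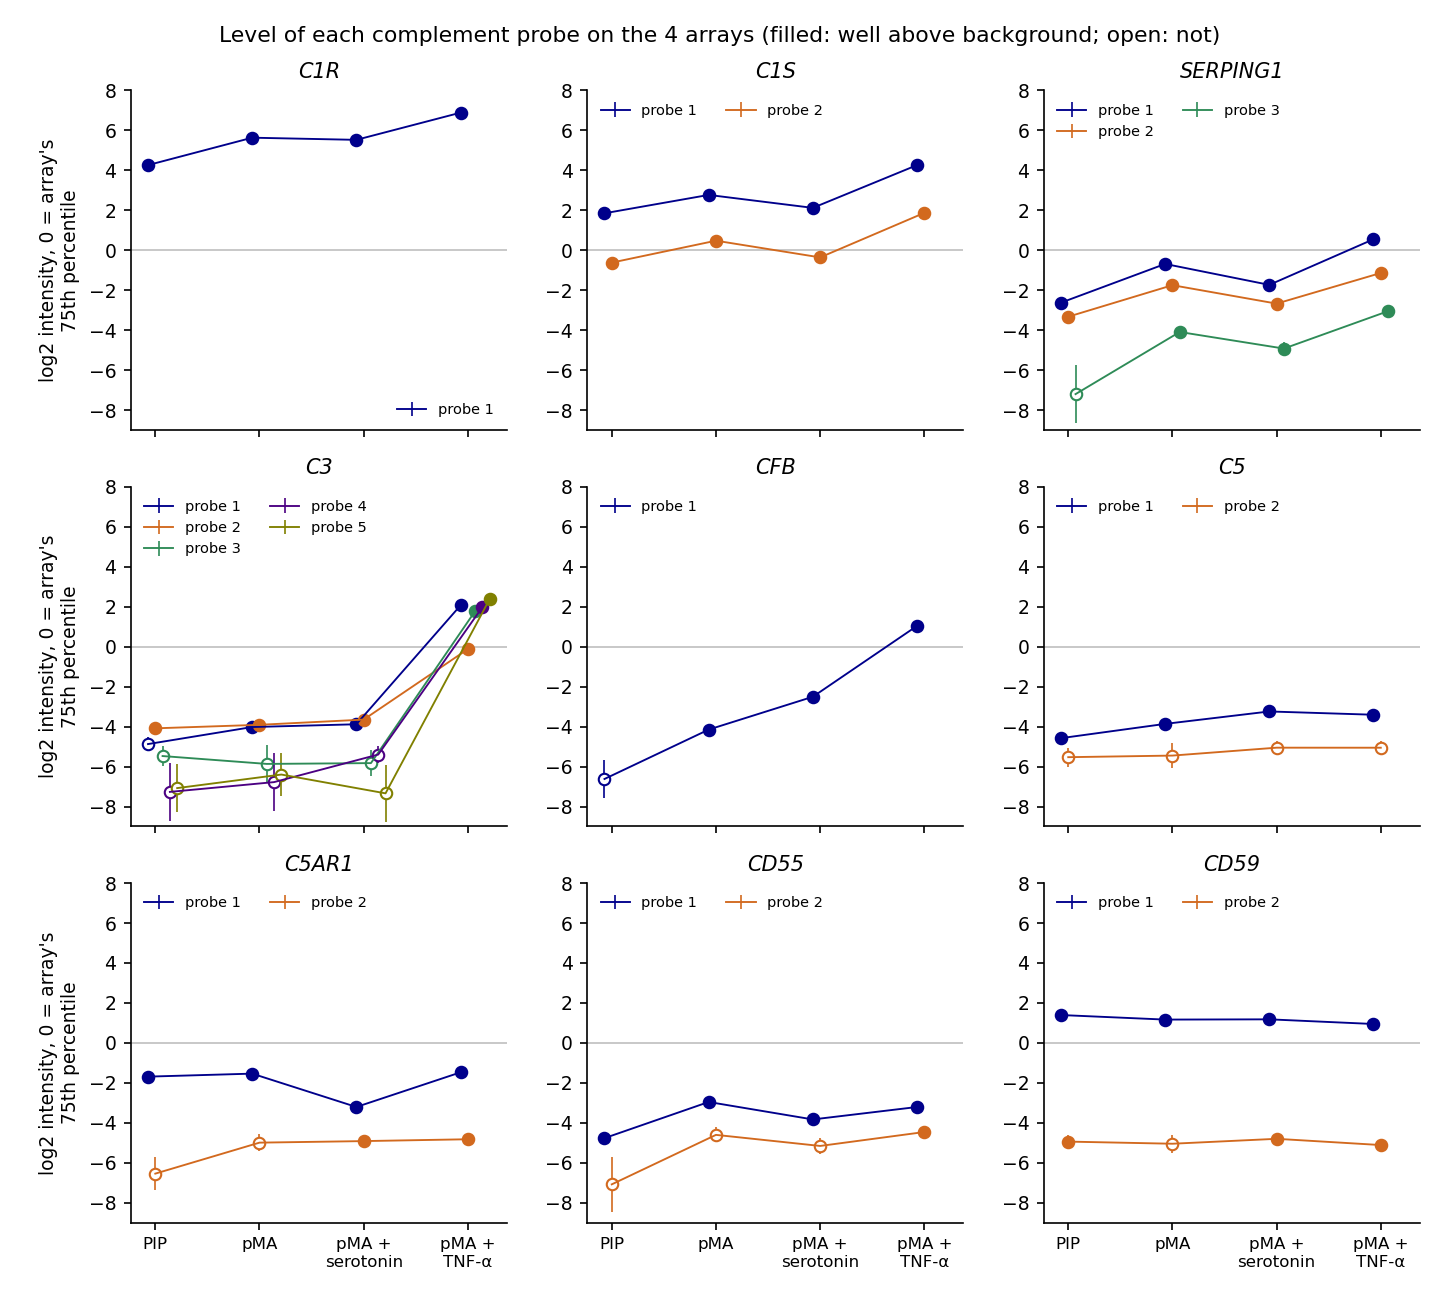
Log2 intensity of each of the 20 complement probes (y axis, 0 at the array's 75th percentile) in PIP cells, pMA, pMA with serotonin and pMA with TNF-α (x axis), 1 panel a gene and 1 color a probe. Filled circles were well above background, open circles were not, bars are the scanner's spot error, and the 5 C3 probes stand together near or above 0 with TNF-α only, after levels of -3.65 or lower in the other 3 conditions.

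C1R encodes a protease that starts the classical pathway. Its level was 4.27 in PIP cells, 5.64 in pMA, 5.53 after serotonin and 6.89 after TNF-α. The order was PIP, serotonin, unstimulated pMA and TNF-α, and the 0.11 between the middle pair was below the scanner error of 0.20. pMA were 2.59-fold higher than PIP cells (log2 ratio 1.37 ± 0.20), and pMA with TNF-α were 2.38-fold above unstimulated pMA (1.25 ± 0.20). With serotonin the log2 ratio was -0.11 ± 0.20. C1R had a single probe, and no second probe stood beside these values.

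C1S encodes the protease that C1r activates. Probe 1 gave levels of 1.86 in PIP cells, 2.77 in pMA, 2.13 after serotonin and 4.27 after TNF-α. Probe 2, which shared no run longer than 5 bases with it, gave -0.61, 0.48, -0.35 and 1.88 in the same order. Both probes placed serotonin between PIP cells and unstimulated pMA, and TNF-α on top. Between pMA and PIP cells the log2 ratio was 0.92 ± 0.20 with probe 1 and 1.10 ± 0.20 with probe 2, on either side of the 2-fold cutoff of the methods. With TNF-α the ratios were 1.49 and 1.39, or 2.81-fold and 2.62-fold. After serotonin both were negative, -0.65 and -0.84, and neither reached 2-fold. TNF-α stood 4.41-fold above serotonin by probe 1 and 4.68-fold by probe 2.

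SERPING1 encodes C1 inhibitor, which inactivates C1r and C1s. Probe 1 had levels of -2.62 in PIP cells, -0.68 in pMA, -1.73 after serotonin and 0.56 after TNF-α. Probe 2 had -3.32, -1.74, -2.66 and -1.13, and probe 3 had -7.19, -4.08, -4.91 and -3.04, the first of these not well above background. All 3 probes gave the order PIP, serotonin, unstimulated pMA, TNF-α. For probe 1 every step of that order, 0.89, 1.05 and 1.24, was more than 2 times its scanner error. In pMA the gene was 3.83-fold higher than in PIP cells by probe 1 and 2.98-fold by probe 2, and probe 3 gave at least 2.06-fold. After serotonin the ratios lay between -1.05 and -0.83, so that probe 1, at 2.07-fold lower, was the only probe past the cutoff. After TNF-α they lay between 0.61 and 1.24, and 2 of the 3 probes passed it. TNF-α was 4.87-fold above serotonin by probe 1, and all 3 probes passed the cutoff there.

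C3 is the protein at which the pathways meet. Probe 1 had levels of -4.88 in PIP cells, -4.02 in pMA, -3.88 after serotonin and 2.07 after TNF-α. Probe 2, well above background in every condition, had -4.09, -3.91, -3.65 and -0.12. Probes 3, 4 and 5 were not well above background in PIP cells, pMA or serotonin-treated pMA, with levels of -7.34 to -5.40, and reached 1.78, 1.98 and 2.38 after TNF-α. C3 was thus near the detection limit in 3 conditions and, by 4 of its 5 probes, brighter than 75% of the array in the fourth. The log2 ratio of TNF-α over unstimulated pMA was 6.09 ± 0.33 with probe 1, a 68.1-fold difference. It was 3.79 ± 0.31 with probe 2, a 13.8-fold difference. Probes 3, 4 and 5 gave at least 85.2-fold, 98.1-fold and 130-fold. Probes 1 and 2, measured on both arrays, had the same direction, and their sizes differed by far more than the scanner error. Probes 3, 4 and 5 were well above background with TNF-α alone, so their bounds could only point up. Among 17639 gene names with a measured ratio to unstimulated pMA, that of C3 by probe 1 ranked 1 from the top. Probe 1 stood for C3 only through its level after TNF-α, since probe 2 was brighter in the other 3 conditions. The rank thus depends on a choice of probe that used the TNF-α array, and the smaller ratio of probe 2, 3.79, was not ranked.

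Serotonin left C3 within the scanner error of unstimulated pMA, with log2 ratios of 0.14 ± 0.37 and 0.26 ± 0.33 for probes 1 and 2. Against serotonin, TNF-α was 61.8-fold higher by probe 1 and 11.5-fold by probe 2. Probes 3, 4 and 5 put that difference at 120-fold, 138-fold and 182-fold or more. Between pMA and PIP cells probe 1 gave at least 1.81-fold, whereas probe 2 gave 1.13-fold (0.18 ± 0.36).

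CFB encodes factor B, the protease subunit of the alternative pathway's C3 convertase. Its level was -6.62 in PIP cells, not well above background, then -4.15 in pMA, -2.51 after serotonin and 1.04 after TNF-α. CFB was the only gene of the 9 that stood above unstimulated pMA by at least 2-fold after both stimulations. With serotonin it was 3.12-fold higher (1.64 ± 0.32), which ranked 80 from the top of 17367 measured ratios. With TNF-α it was 36.5-fold higher (5.19 ± 0.31), which ranked 5 from the top. TNF-α exceeded serotonin 11.7-fold. Both stimulations were set against the same unstimulated array, where the CFB spot had an intensity of 26.9, against 19.3 for the faintest signal well above background. In pMA it was at least 1.97-fold higher than in PIP cells.

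C5 is the component whose cleavage opens the terminal pathway. Probe 1 had levels of -4.58 in PIP cells, -3.87 in pMA, -3.24 after serotonin and -3.41 after TNF-α. Probe 2 was not well above background in any condition, with levels of -5.53 to -5.06. No C5 ratio reached 2-fold: pMA over PIP was 0.71 ± 0.36, serotonin over pMA 0.62 ± 0.29 and TNF-α over pMA 0.46 ± 0.29. The stimulations differed from each other by 0.16, less than the scanner error of 0.24.

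C5AR1 encodes the receptor for the C5a fragment, best known on myeloid cells. Probe 1 had levels of -1.69 in PIP cells, -1.54 in pMA, -3.21 after serotonin and -1.47 after TNF-α. Serotonin stood apart, 3.18-fold below unstimulated pMA (-1.67 ± 0.23), and the other 3 conditions lay within the scanner error of their neighbors. This ratio ranked 173 from the bottom of 17367. Probe 2 failed the background flag in unstimulated pMA, and gave no ratio to it because its levels after stimulation lay below the faintest signal well above background there, -4.64. These levels, -4.91 after serotonin and -4.82 after TNF-α, differed by 0.09 ± 0.41. Probe 1 put TNF-α 3.33-fold above serotonin, so the probes of C5AR1 disagreed, and its lower value with serotonin rests on 1 probe.

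CD55 encodes decay-accelerating factor, which takes apart the C3 convertases on the cell's own membrane. Probe 1 had levels of -4.77 in PIP cells, -2.96 in pMA, -3.83 after serotonin and -3.21 after TNF-α. PIP cells were lowest, and pMA were 3.51-fold higher (1.81 ± 0.32). After serotonin the ratio was -0.87 ± 0.25 and after TNF-α -0.25 ± 0.23, neither of them 2-fold. Probe 2 passed the background flag with TNF-α alone, at -4.46, where it gave at least 1.10-fold over unstimulated pMA and at least 1.59-fold over serotonin.

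CD59 encodes the membrane protein that stops the last step of pore assembly. Probe 1 had levels of 1.40 in PIP cells, 1.17 in pMA, 1.18 after serotonin and 0.95 after TNF-α. It was the flattest of the 9 genes by probe 1, with a range of 0.45 over the conditions. Its ratios were -0.23 ± 0.20 in pMA over PIP, 0.01 ± 0.20 with serotonin and -0.22 ± 0.20 with TNF-α. Probe 2 lay close to background, between -5.11 and -4.80.

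**Figure D2:**
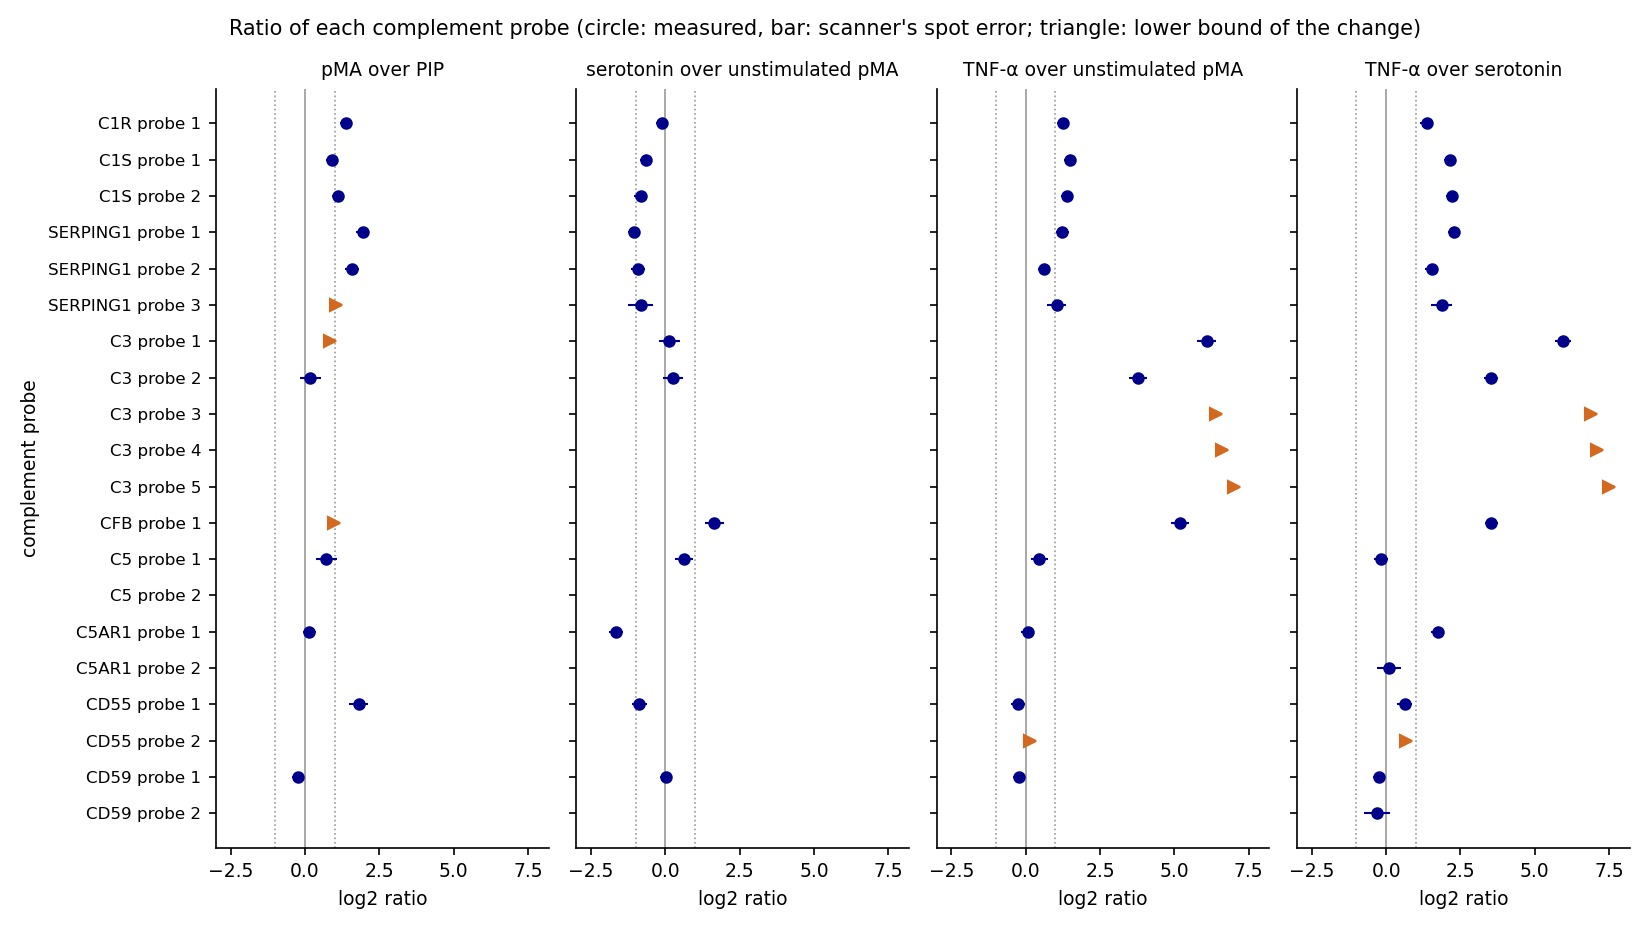
Log2 ratio (x axis) of each complement probe (y axis) in the 4 comparisons, with the 2-fold cutoff as dotted lines. Circles are measured ratios with the scanner's spot error, and triangles are lower bounds. In TNF-α over unstimulated pMA 11 of the 17 probes with a ratio lie past the upper cutoff. The 5 C3 probes are among these 11 and spread from 3.79 to at least 7.02. Of the 17 ratios 4 are lower bounds that could only point up, and the share over all probes was not calculated.

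In differentiation, 3 of the 9 genes were at least 2-fold higher in pMA than in PIP cells, namely SERPING1, CD55 and C1R, where 9.92% of all 18635 gene names with a ratio were that much higher. None was 2-fold lower, and 3.56% of all gene names were. The median of the 9 ratios was 0.92, with a range of -0.23 to 1.94 and 2 lower bounds. The median of all gene names was 0.12. At the level of probes, 6 of 13 with a ratio were at least 2-fold higher and 0 lower. Of these 6 probes, 3 were of SERPING1, and the share over all probes was not calculated. Lower bounds made up 3 of the 13 ratios, that of SERPING1 probe 3 among them, and these could only point up. The 8 bright spike-in controls, added in equal amounts to each labelling, had a median log2 ratio of -0.38 between these arrays, whereas ACTB, which encodes beta-actin, had 0.43. A scaling to ACTB would move every ratio down by that amount and leave SERPING1 and CD55, but not C1R, at 2-fold or more. A scaling to the spike-in controls would move every ratio up and put C3, CFB, C1S and C5 past 2-fold as well. The count thus depends on the control, and the share of all gene names would move with it. Scaling to the median intensity in place of the 75th percentile moved the median of all gene names to -0.22 and that of the 9 genes to 0.57, so the distance between the medians was 0.80 before and 0.79 after. It also turned C5AR1 from 0.15 to -0.20, the only change of sign among the 9 in differentiation over the settings tried. With normexp background correction CD55 was short of 2-fold, at 0.71, and only SERPING1 and C1R among the 9 kept a 2-fold difference in every setting tried.

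After serotonin, 1 of the 9 genes, CFB, was at least 2-fold higher than in unstimulated pMA, and 2.08% of all 19093 gene names with a ratio were. C5AR1 and SERPING1 were at least 2-fold lower, as were 4.74% of all gene names. The median of the 9 was -0.11, with ratios of -1.67 to 1.64, and that of all gene names was 0.01. The ratios of C1R, C1S, SERPING1, CD55 and C5AR1 were below 0 and those of CFB and C5 above 0 in every setting tried, while those of C3 and CD59 changed sign between settings. The summed intensity of the preadipocyte and fibroblast markers was 425 in unstimulated pMA and 225 after serotonin, against 459 in PIP cells and 346 after TNF-α. That of the endothelial markers was 1.16 and 0.48, against 1.59 and 1.16, and that of the muscle markers 10.4 and 5.51, against 8.55 and 11.1. All 3 sums were thus lowest on the serotonin array, as C5AR1 was, whereas C1R, C1S, SERPING1 and CD55 were lowest in PIP cells. The macrophage sum was 2.19 in unstimulated pMA, 2.05 after serotonin and lowest, at 1.65, in PIP cells. The adipocyte sum, mostly LPL and CD36, was highest after serotonin, at 18.0. The part of other cell types in the lower complement values was not tested. Each of the preadipocyte and fibroblast, endothelial and muscle sums rests mostly on its brightest marker. From unstimulated pMA to serotonin these went from 8.55 to 7.63 (COL1A2), -0.20 to -1.66 (PECAM1) and 3.26 to 2.24 (DES). THY1, COL1A1 and KDR were also lower with serotonin. MYOG, the other muscle marker well above background, was at -0.37 and -0.38. The spike-in controls had a median log2 ratio of -0.14 between these arrays, and ACTB had -0.30. A scaling to either control would move every ratio up and leave C5AR1, but not SERPING1, at 2-fold lower or more. With normexp correction CFB stood at 0.63 and SERPING1 at -0.82, both short of 2-fold. C5AR1, at -1.15 or lower in every setting, was the only 1 of the 3 that passed the cutoff in all of them.

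After TNF-α, 5 of the 9 genes, C3, CFB, C1S, C1R and SERPING1, were at least 2-fold higher than in unstimulated pMA, and 2.21% of all 19785 gene names with a ratio were. None was 2-fold lower, where 1.34% of all gene names were. The median was 1.24, with a range of -0.25 to 6.09, and that of all gene names was 0.01. The receptor and the membrane regulators did not reach 2-fold, with C5AR1 at 0.06, CD59 at -0.22 and CD55 at -0.25. Of 17 probes with a ratio, 11 were at least 2-fold higher and 0 lower. Of these 11 probes, 5 were of C3. Lower bounds made up 4 of the 17 ratios, those of C3 probes 3, 4 and 5 and CD55 probe 2. These probes were well above background with TNF-α but not in unstimulated pMA. They entered the count only through the TNF-α array and could not have counted as lower. The share over all probes was not calculated. The 5 genes kept a 2-fold difference in every setting that gave them a ratio, but normexp correction lowered C3 to 4.31 and CFB to 3.49. The spike-in controls had a median log2 ratio of -0.08 after TNF-α, and ACTB had -0.19.

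Set directly against serotonin, TNF-α gave at least 2-fold higher values for 6 of the 9 genes, where 5.08% of 21864 gene names with a ratio were that much higher. These were C3, CFB, SERPING1, C1S, C5AR1 and C1R. None was 2-fold lower, and 1.82% of all gene names were. The median was 1.73 and that of all gene names was 0.04. This comparison uses the same stimulated arrays as the preceding ones, so it is not further evidence of either response. For C5AR1 the difference came from the serotonin array and was 0.91 when the median over its probes was taken, and for C1S and SERPING1 the stimulations lay on opposite sides of unstimulated pMA.

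**Figure D3:**
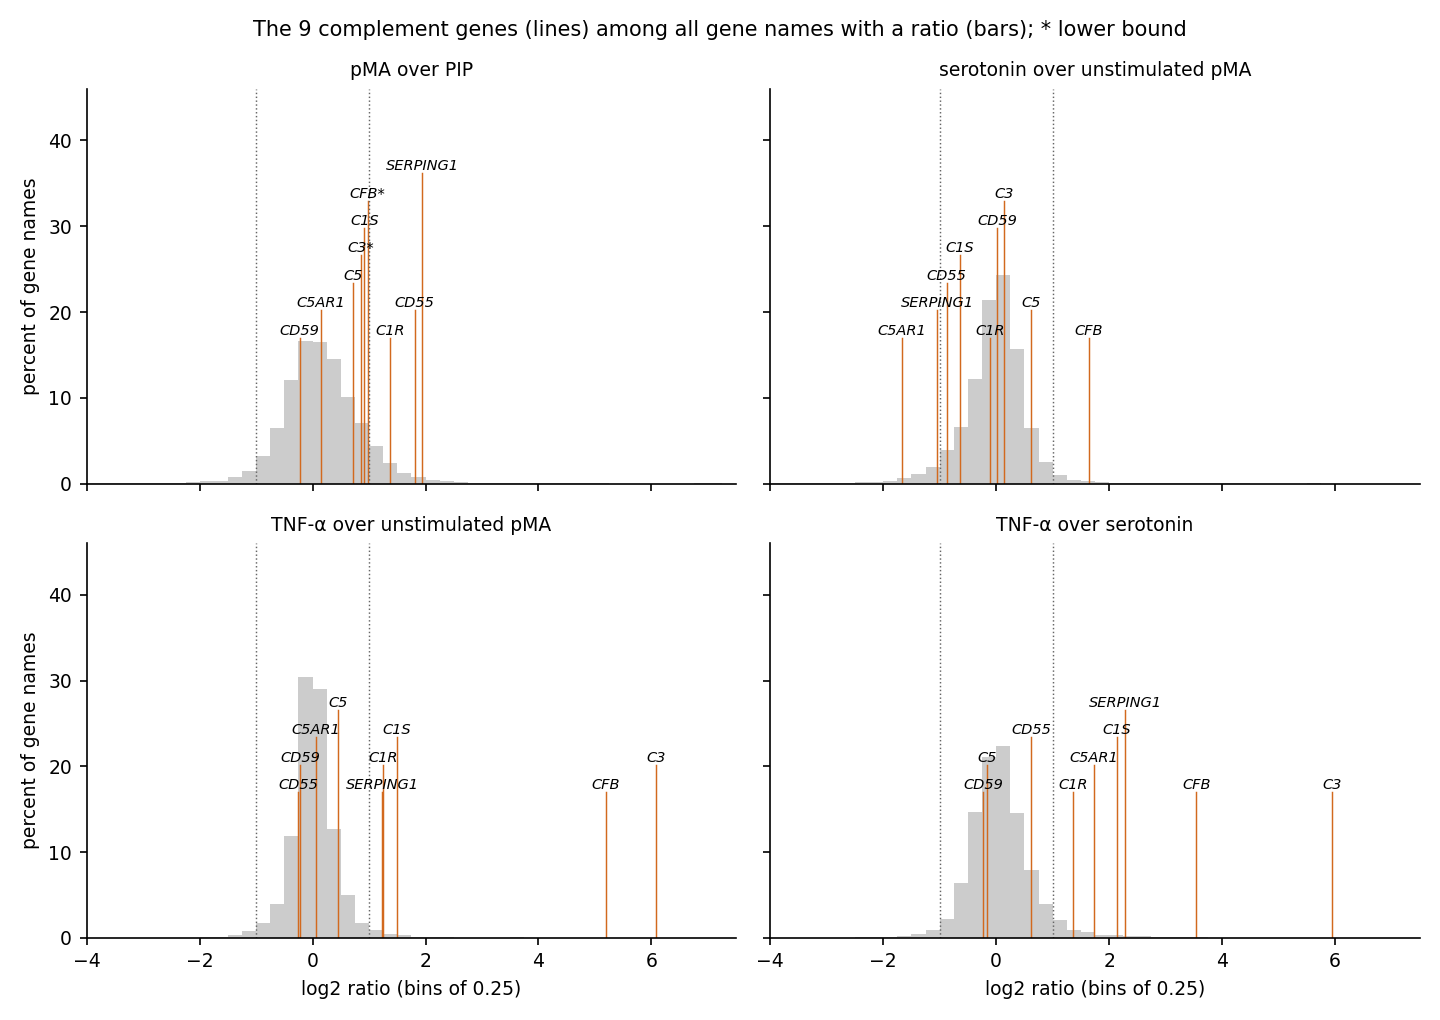
Distribution of log2 ratios of all gene names in each comparison (bars, percent of gene names in bins of 0.25) with the 9 complement genes as lines, an asterisk marking a lower bound and dotted lines the 2-fold cutoff. After TNF-α, C3 at 6.09 and CFB at 5.19 lie in the upper tail, where few gene names remain, while after serotonin the 9 genes lie on both sides of 0.

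Other complement genes were taken from a list written from general knowledge. Of its 57 names 35 were on the array, and 26 of these were not among the 9. By the probe with the highest mean level, 11 of the 26 were well above background on all 4 arrays, 6 on some and 9 on none, the latter including C1QA, C1QC, C6, C7 and C8B. Of the 26, 14 had a ratio in differentiation, 12 with serotonin, 14 with TNF-α and 17 in TNF-α over serotonin. At least 2-fold higher were 1, 1, 1 and 2 of them in that order, beside 9.92%, 2.08%, 2.21% and 5.08% of all gene names. None was 2-fold lower in any comparison. The medians were 0.15, -0.06, 0.07 and 0.19, beside 0.12, 0.01, 0.01 and 0.04 for all gene names.

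The genes behind these counts were CLU, C2 and ITGB2. CLU encodes clusterin, a chaperone that also blocks the terminal complex, and had levels of 2.46 in PIP cells, 4.89 in pMA, 3.96 after serotonin and 5.02 after TNF-α. It was 5.37-fold higher in pMA than in PIP cells and 2.08-fold higher with TNF-α than with serotonin. C2, the classical pathway's counterpart of factor B, had levels of 0.94, 0.97, 0.24 and 2.21. C2 was 2.36-fold above unstimulated pMA after TNF-α by its brighter probe, whereas its other probe gave a log2 ratio of 0.45. TNF-α over serotonin was 3.93-fold for the brighter probe of C2, and 0.67 on the log2 scale for the other. ITGB2, the shared subunit of complement receptors 3 and 4, had levels of -1.89, -1.93, -0.90 and -1.61. It was 2.05-fold higher with serotonin than in unstimulated pMA by 1 of its 2 probes, and the other probe gave no ratio. The levels of CLU followed the order of SERPING1 over the 4 conditions, although TNF-α and unstimulated pMA were only 0.13 apart, and those of C2 were highest with TNF-α and lowest with serotonin.

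**Figure D4:**
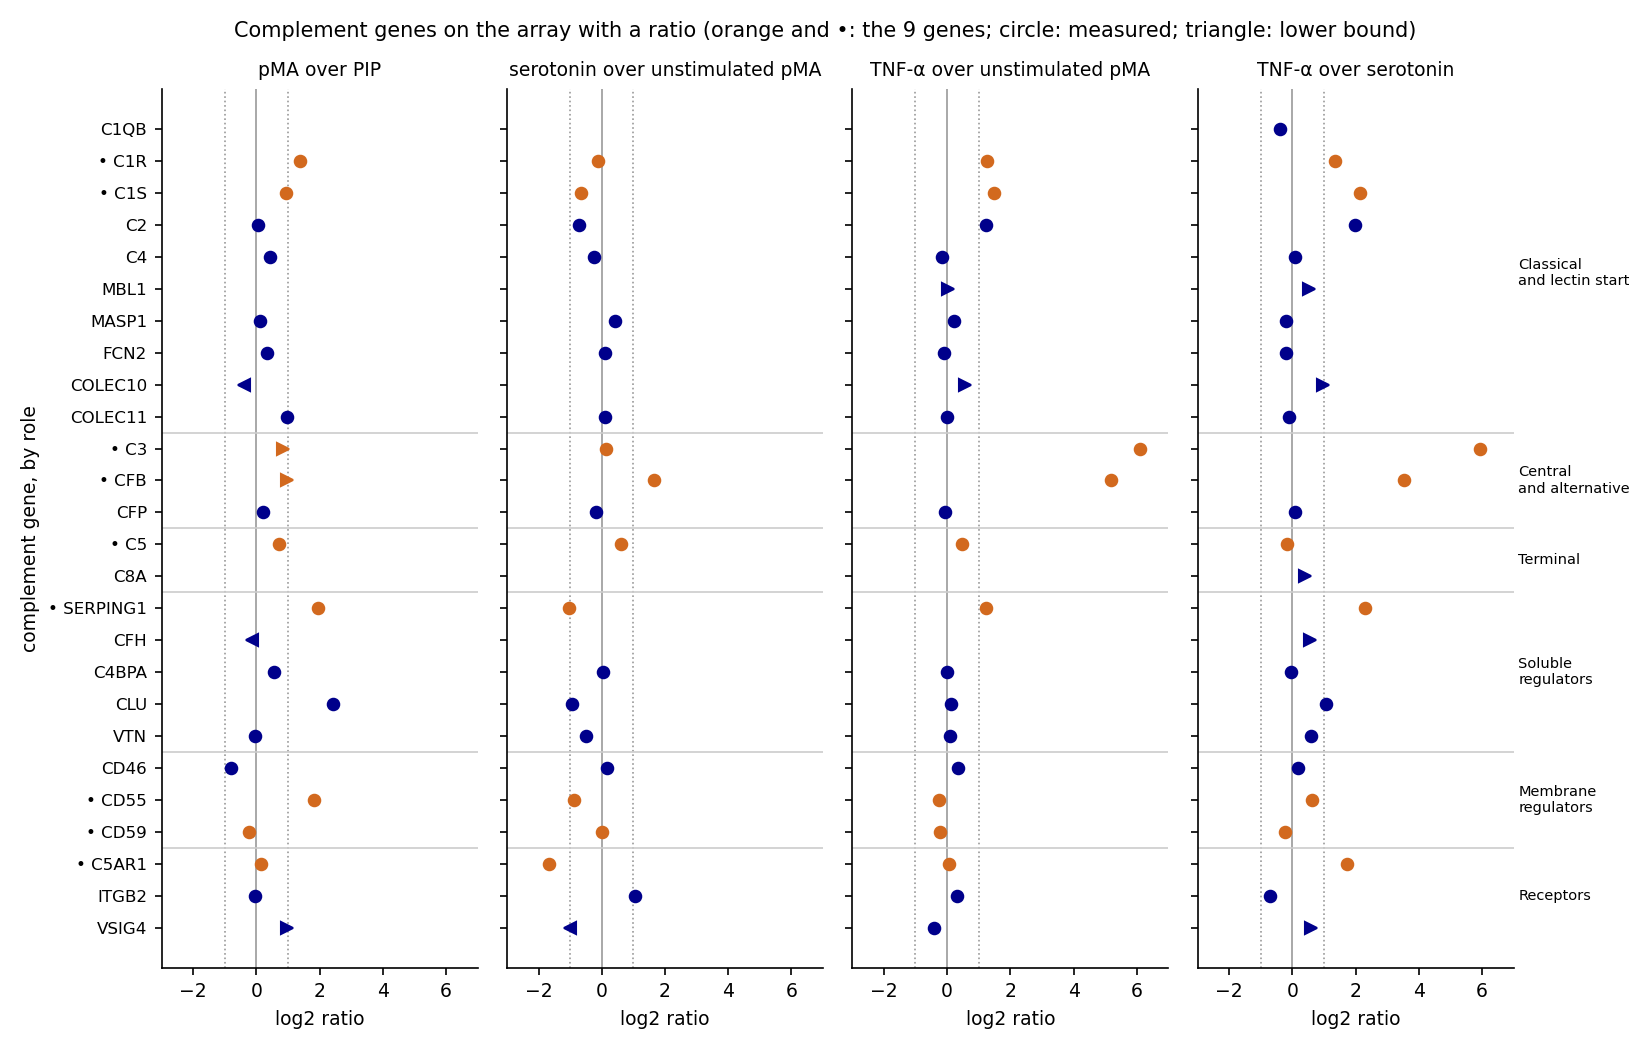
Log2 ratios (x axis) of the complement genes on the array that had a ratio in at least 1 comparison (y axis, grouped by role), with the 9 genes in orange and marked by a dot. Circles are measured, triangles are lower bounds and dotted lines mark the 2-fold cutoff. Among the other genes C2, CLU and ITGB2 pass the cutoff, C2 at 1.24 after TNF-α and CLU at 2.42 in pMA.

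For the 7 genes whose probe 1 was well above background on all arrays, the gene symbols with the most similar levels were sought among 4632 symbols of the same kind. Each gene was centered on its own mean, and likeness was the Euclidean distance over 4 arrays, 1 for each condition. With only 4 points many genes lie close to any pattern, and the distances are descriptions. Nearest to C1R were SYN1 at 0.22, CCL2 at 0.25 and CALCB at 0.33. Nearest to C1S were RAMP1 at 0.14, RASL11B at 0.26 and PGLYRP2 at 0.47. SERPING1 had PGLYRP2 at 0.47, STEAP3 at 0.60 and RASL11B at 0.62, so that PGLYRP2 and RASL11B appeared for C1S as well. C5 had ATG16L2 at 0.04, PRDX6 at 0.09 and HTR2A at 0.12, and C5AR1 had FABP5 at 0.05, LSAMP at 0.09 and MYLPF at 0.16. CD55 had LYPD6 at 0.19, MYLK at 0.27 and APLP2 at 0.28, and CD59 had MCEE at 0.03, ATXN1 at 0.03 and CS at 0.04. The flat profile of CD59 lay close to many genes, and that of SERPING1 was farther from its nearest symbol than any of the other 6 profiles.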

How the data were processed

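Total RNA from PIP cells, unstimulated pMA, serotonin-stimulated pMA and TNF-α-stimulated pMA was pooled within a condition by the authors, and 200 ng was labelled with Cy3. The methods mention GenePix with a mouse array, and elsewhere a porcine array with a pair of dyes, whereas the deposited files are from a porcine array in 1 color. Intensity values of each spot were made by the authors with Agilent Feature Extraction 10.7.3.1 (per the submitters' processing notes), which subtracts the background and removes spatial trends. The 4 arrays were on 1 slide. The authors' value table held the same intensity values divided by 1 constant for each array. Probes were not placed on a genome, and no probe coordinates are given here.

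From there, control spots and 1 to 12 outlier spots on an array were left out, repeated spots were averaged, and log2 intensity minus the array's 75th percentile was calculated in Python 3.11.15 with pandas 2.3.3 and numpy 2.4.6. Figures were drawn with matplotlib 3.10.9. The 75th percentile was an intensity of 515 in PIP cells, 479 in pMA, 566 after serotonin and 559 after TNF-α. The probe with the highest mean level over the 4 arrays stood for a gene. The cutoff of 2-fold is that of the methods. Symbols were recognised through RefSeq names for Sscrofa11.1, which held 6249 of the gene names, all 9 complement genes among them. The ratio rules were tested on simulated data. Alternatives were scaling to the median, quantile normalization and normexp (offset 50) in limma 3.58.1 under R 4.3.3, no filter on dim probes, a filter on all 4 arrays, the authors' table, the median over probes, and cutoffs of 1.5-fold and 4-fold.

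All probes of the 9 genes are named. From the wider complement list, genes past 2-fold in a comparison are named, and for likeness the 3 nearest symbols. The 9 genes and all lists were chosen with earlier results of these data known. With 1 array a condition, the number of arrays limits the precision, and no test was made.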

Additional observations from a re-analysis of the deposited data

How the results depend on the processing

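Of the 36 ratios of the 9 genes in the 4 comparisons, 30 stayed on their side of the 2-fold cutoff in each of the 7 alternatives of scaling, background, filter or probe that gave a ratio. Of the 17 at 2-fold or more, 13 did so and 17 kept their sign. The 7 alternatives are not equal checks. Both filter settings leave a measured ratio unchanged or drop it, and the median over probes leaves it unchanged where 1 probe had a ratio. The authors' table moves all measured ratios of a comparison by the same amount. The ratios that changed sign were C5AR1 in differentiation (-0.20 to 0.21) and with TNF-α (-0.02 to 0.06), C3 (-0.12 to 0.20) and CD59 (-0.01 to 0.05) with serotonin, and C5 in TNF-α over serotonin (-0.28 to 0.04). In differentiation the median of the 9 was 0.57 after scaling to the median, 0.48 after quantile normalization and 0.51 with normexp. At 4-fold 0 genes and at 1.5-fold 7 genes were higher. With serotonin, the count of higher genes was 0 with normexp, 0 with the background filter applied to all 4 arrays, 0 at 4-fold and 2 at 1.5-fold. The count of lower genes was 1 with normexp, 1 with the median over probes, 0 at 4-fold and 4 at 1.5-fold. The filter on all 4 arrays left 7 genes, without C3 and CFB, and moved the median to -0.65. With TNF-α that filter gave 3 higher genes and a median of 0.46, by its removal of C3 and CFB, and 2 genes passed 4-fold. In TNF-α over serotonin the median was 1.32 with normexp, 1.36 with the filter on all 4 arrays and 1.36 with the median over probes. Less the median of all gene names, the median of the 9 lay between 0.40 and 0.85 in differentiation, -0.65 and 0.02 with serotonin, 0.48 and 1.28 with TNF-α, and 1.29 and 1.75 in TNF-α over serotonin. No paired analysis was possible because each condition had 1 array. Dim probes limit what can be seen: the scanner error reached 1.44 in log2 intensity for the dimmest complement spots, against 0.14 for bright ones.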

Other observations

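Besides the 20 probes, 2 probes without a gene symbol were described in the array design as decay-accelerating factor CD55 of the pig. Neither was well above background in any condition. Their levels were -7.22 and -7.03 in PIP cells, -5.74 and -6.56 in pMA, -6.42 and -7.06 after serotonin and -7.08 and -7.22 after TNF-α. They gave no ratio and added nothing to the CD55 values.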
